A study of Mus musculus with 16 samples.

Results

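The integrins, laminins and cadherins described here were taken from the deposited table by gene symbol: the numbered integrin subunits and Itgav, the laminin chains, the numbered cadherins, all protocadherins, both nidogens, Hspg2 (perlecan) and Agrn (agrin). The rule found 56 of 12100 genes. They comprise 9 integrin α subunits, 5 integrin β subunits, 6 laminin chains, 4 other basement membrane genes, 5 cadherins and 25 protocadherins. The last group holds 5 single genes, 12 of the β cluster and 8 of the γ cluster. The rule also took up 2 genes whose symbols begin like an integrin but which encode other proteins: Itgb1bp1, a protein that binds the tail of integrin β1, and Itgb3bp, a centromere protein.

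Integrins are receptors of an α and a β chain that tie the cytoskeleton to the matrix outside the cell. Laminins are trimers of an α, a β and a γ chain, and together with nidogens, perlecan, agrin and type IV collagen they build basement membranes. Cadherins and protocadherins join cells to one another through calcium-dependent contacts, and in fibroblasts TGFβ is known as an inducer of matrix genes and of integrins that bind them.

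The libraries were made from mouse embryo fibroblasts (MEFs), and the study asked how Arkadia, a ubiquitin ligase encoded by Rnf111 that acts in TGFβ signalling, shapes transcription. WT cells were Ark+/+, and null cells were Ark-/-. The rvWT cells were Ark-/- cells given wild-type Arkadia by a retrovirus (rvCAG-ArkWT), and the sim cells carried instead a form in which hydrophobic residues of the SUMO-interacting motifs were changed to alanine (rvCAG-Arksim). The synthetic CAG promoter of this Moloney virus vector also drives EGFP, nearly all cells were infected per the labels, and early passages were used. The null cells had no virus, and a line with an empty virus was not analysed here. TGFβ was given at 2.5 ng/ml for 1, 4 or 16 h, and 0 h libraries had none. All libraries at 1, 4 and 16 h were treated, so TGFβ and time in culture cannot be told apart. Library set A held WT and null cells at 0, 1, 4 and 16 h (8 libraries), and set B held rvWT and sim cells at 0, 1 and 4 h and null cells at 0 and 1 h (8 libraries). Each line had 1 library per time, apart from null cells at 0 and 1 h, which had 1 in each set. The sets follow codes in the sample titles, and the design text speaks of a pair of sequencing batches. It calls the samples independent, but neither clones nor cultures are named, so a line and its Arkadia status cannot be told apart, and the p-values reflect only how far these libraries scatter, possibly for technical reasons.

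Values are FPKM, fragments scaled to transcript length and library size, and differences are on the log2(FPKM + 1) scale, which understates changes of genes with low values. Rnf111 lay at 14.5 to 15.1 FPKM in WT cells, 0.121 to 0.198 in null cells of set A, 0.435 to 0.526 in null cells of set B, 103 to 126 in rvWT cells and 56 to 62.1 in sim cells. The summed FPKM of a library ran from 397019 to 481970, and read depth is unknown. Compared gene by gene (genes are no independent replicates), libraries of 1 series had a median Spearman correlation of 0.970 over 19 pairs, and WT libraries set against other lines had one of 0.873 over 48 pairs. Null libraries of different sets, matched by time, had one of 0.962 over 2 pairs. Of 10 fibroblast markers, 8 were in the table, and their summed level was 1719 to 2242 FPKM in WT cells, 2585 to 3759 and 2548 to 2603 in null cells of sets A and B, 4475 to 5067 in rvWT and 4094 to 4463 in sim cells. Lum, a fibroblast proteoglycan, was at or near 0 in WT cells (0 to 0.0612 FPKM).

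Integrin β1, the partner of most matrix-binding α chains, was the most abundant member in all 16 libraries, at 241 to 459 FPKM. It supplied 74.4% to 92.4% of the summed FPKM of the 5 β subunits. Of the 56 genes, 17 had a mean of at least 20 FPKM over all libraries and 15 had a mean under 1 FPKM. Among α chains the highest means were those of Itga5 (87.2 FPKM), which makes the main fibronectin receptor with β1, Itga3 (67.6), a laminin receptor chain, and Itgav (50.8), which joins several β chains in receptors for fibronectin, vitronectin and latent TGFβ. Laminin mRNAs were led by Lamc1 (67.3 FPKM) and Lamb1 (59.6), the widely expressed γ1 and β1 chains, followed by Lamb2 (41.8) and Lama5 (26.7), the only laminin α chain found by the rule. Nid1 had a mean of 106 FPKM and Hspg2 one of 63.2. The leading cadherins were Cdh11 (56.3 FPKM), typical of mesenchymal cells, and Cdh2 (36.3), N-cadherin. Of the 20 protocadherins of the β and γ clusters, 12 had a mean under 1 FPKM, and only Pcdhgc3, at 42.5, exceeded 20 FPKM. Clustered protocadherins are related in sequence (β) or share constant exons (γ), so the deposited values may divide reads among them and are uncertain.

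**Figure D1:**
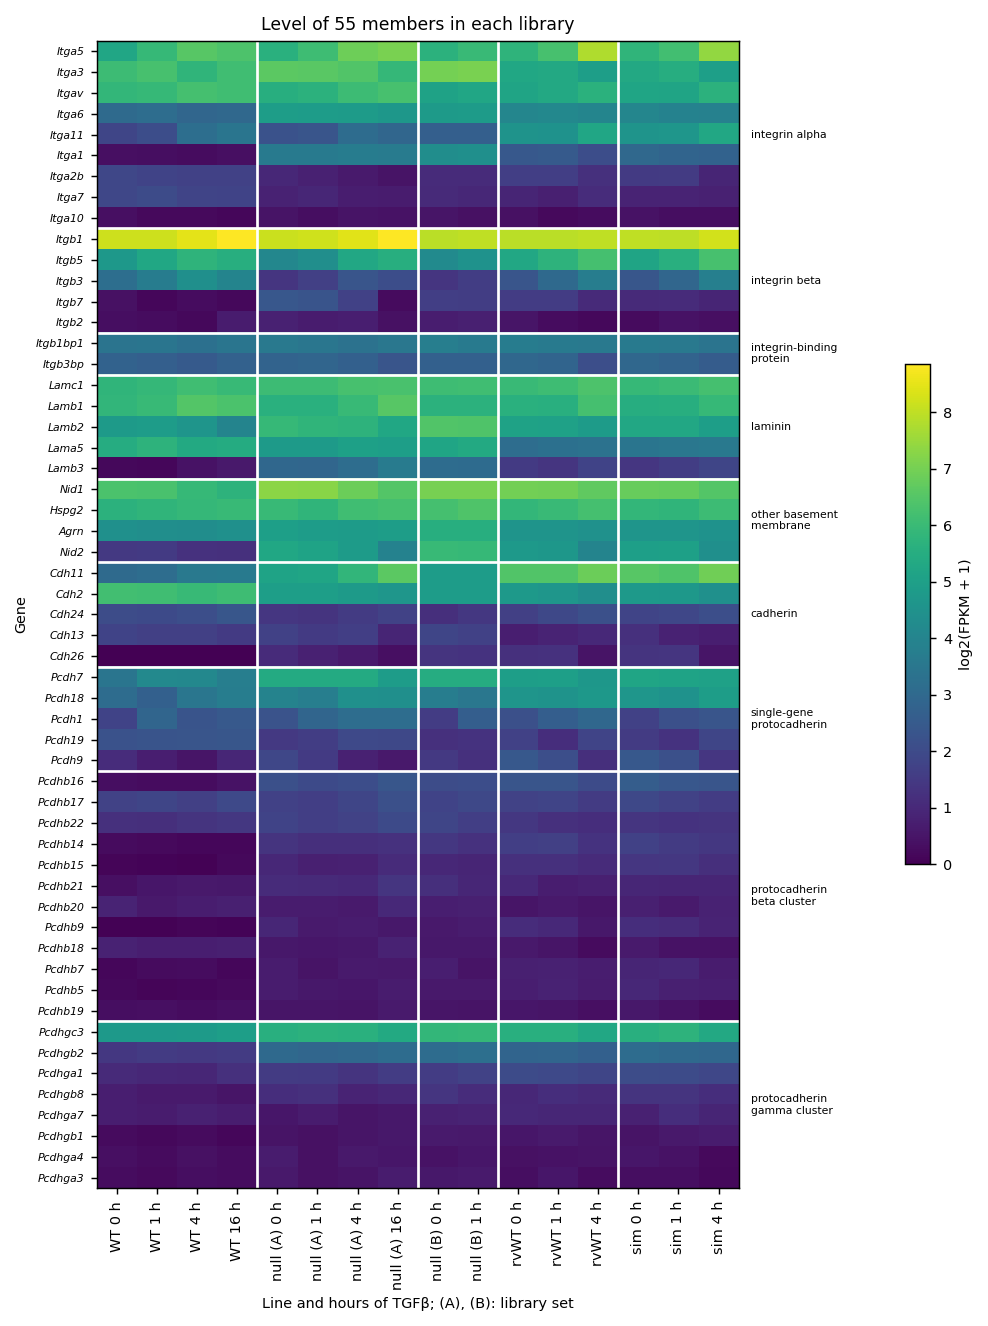
Heat map of 55 of the 56 genes (rows, grouped by family) in the 16 libraries (columns, by line and hours of TGFβ); colour gives log2(FPKM + 1). Itgb1 is the brightest row throughout, Itga1, Lamb3, Nid2 and Cdh11 are darkest in the 4 WT libraries, and Itga5 brightens at 4 h in every line.

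At 4 h of TGFβ, fibronectin and vitronectin receptor chains and several laminin chains were higher than before treatment. Both nidogens and Lamb2 were lower. The test used all 16 libraries with the 5 time series as a block (limma on log2(FPKM + 1), adjusted over 11045 genes), and 41 of the 56 genes had the mean of at least 1 FPKM it required. Of these 41, 15 rose and 10 fell. Over all genes tested, 11.9% rose and 27.1% fell. The median difference of the 41 was -0.08, the same as that of all genes. With quantile normalization 15 of the 41 rose and 6 fell, and of all genes called 45.6% were higher, against 30.6% without it and 51.1% with median-ratio scaling. Each of the 25 genes moved in its direction in 4 of 4 series, which their selection by the same test on these libraries favours. Set A alone, with WT and null cells at 4 h, gave 1 call, and set B alone, with rvWT and sim cells at 4 h, gave 23.

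Promoter sequences are shown for 4 of these genes, Itga5, Itgb5 and Lamb1, which rose, and Lamb2, which fell, to set the 250 bases before their starts side by side (RefSeq, GRCm38.p6, read 5′ to 3′). Capitals mark CAGAC or its complement GTCTG, the core bound by Smad proteins, and GGGCGG or its complement CCGCCC, the GC box bound by Sp proteins.
Itga5, chr15:103366792-103367041, minus strand: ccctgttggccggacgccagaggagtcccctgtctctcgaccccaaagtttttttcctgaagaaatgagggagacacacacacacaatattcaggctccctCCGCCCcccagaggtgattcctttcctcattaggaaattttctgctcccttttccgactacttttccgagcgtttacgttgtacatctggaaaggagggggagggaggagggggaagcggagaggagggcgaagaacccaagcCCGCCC
Itgb5, chr16:33829415-33829664, plus strand: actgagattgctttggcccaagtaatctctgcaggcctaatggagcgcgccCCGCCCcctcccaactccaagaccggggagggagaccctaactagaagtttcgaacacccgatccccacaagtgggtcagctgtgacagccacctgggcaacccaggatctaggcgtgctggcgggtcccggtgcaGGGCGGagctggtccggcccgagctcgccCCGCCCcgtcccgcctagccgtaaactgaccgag
Lamb1, chr12:31265043-31265292, plus strand: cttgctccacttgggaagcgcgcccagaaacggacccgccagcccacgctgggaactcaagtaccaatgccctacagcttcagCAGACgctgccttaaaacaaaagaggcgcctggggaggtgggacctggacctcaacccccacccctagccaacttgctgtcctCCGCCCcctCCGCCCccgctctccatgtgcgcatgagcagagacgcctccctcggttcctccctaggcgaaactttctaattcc
Lamb2, chr9:108479612-108479861, plus strand: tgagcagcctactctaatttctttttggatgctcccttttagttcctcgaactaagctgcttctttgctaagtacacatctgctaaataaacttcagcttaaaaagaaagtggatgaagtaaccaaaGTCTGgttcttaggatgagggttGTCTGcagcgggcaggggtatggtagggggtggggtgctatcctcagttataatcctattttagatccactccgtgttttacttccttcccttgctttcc
The Itga5 window held no Smad core and 2 GC boxes, and that of Itgb5 no Smad core and 3 GC boxes. The Lamb1 window held 1 Smad core and 2 GC boxes, and that of Lamb2 held 2 Smad cores and no GC box. Windows were found for 25 of the 56 genes. Over all 32851 windows of this length, 42.2% held a Smad core and 32.7% a GC box on either strand. Of 11 windows of 10 genes that rose at 4 h, 4 held the core and 7 the box. Of 9 windows of 7 genes that fell, 2 held the core and 3 the box, and of 7 windows of 6 genes that did not pass, 5 and 4 did. TGANTCA, a form of the AP-1 motif also searched on both strands, was in 6.75% of all windows and in 0 of these 3 groups. These matches are a description of letters in a window, and binding was not measured.

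Integrins took part in the response through chains of fibronectin, vitronectin and collagen receptors. Itga5 went from 36.3, 47.7, 52.6 and 53.7 FPKM at 0 h in WT, null (set A), rvWT and sim cells to 93.1, 119, 223 and 168 at 4 h. All 4 libraries at 4 h lay above every 0 h library, and the difference was 1.56 ± 0.13 (SE, adjusted p = 6.02e-05). Itgb3, the β chain of a vitronectin receptor, went from 8.22, 1.57, 4.07 and 4.10 FPKM to 20.1, 4.04, 12.5 and 13.0 in the same order. It more than doubled in each line, while the null library at 4 h still lay below WT at 0 h (difference 1.23 ± 0.08, adjusted p = 1.32e-05). Itgb5, another partner of αv, went from 25.6, 16.3, 39.0 and 34.5 to 52.4, 38.7, 74.4 and 75.8 FPKM (difference 1.04 ± 0.11, adjusted p = 0.000155). Itga11, a collagen receptor chain of fibroblasts, went from 2.63, 3.69, 22.3 and 22.9 to 8.21, 7.65, 36.5 and 38.3 FPKM (difference 0.90 ± 0.13, adjusted p = 0.000708). For both genes the rvWT and sim cells stood above the other lines at either time. Itgav rose by 0.47 ± 0.07 and Itgb1 by 0.23 ± 0.04, a call that quantile normalization removed (adjusted p = 0.0648). Itga2b, the platelet α chain, fell by 0.38, from 1.00 to 2.72 FPKM at 0 h to 0.548 to 2.29 at 4 h. The laminin receptor chains did not pass at 4 h: the difference was -0.27 for Itga3 (adjusted p = 0.0668), -0.09 for Itga6 (0.151) and -0.02 for Itga7 (0.892). Itga1, another collagen receptor chain, did not pass either (-0.13, adjusted p = 0.166).

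Itgb1 remained the leading β subunit and Itgb5 the next in every library, while the proportions moved. Itgb1 supplied 84.4% of the β subunit FPKM in rvWT cells at 0 h and 74.4% at 4 h, and Itgb5 supplied 13.4% and 21.6%. In WT cells the share of Itgb5 was 7.93% at 0 h, 12.3% at 4 h and 8.70% at 16 h, and that of Itgb3 was 2.55%, 4.70% and 2.88%. Shares of mRNA say nothing of the amount of each receptor at the surface.

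**Figure D2:**
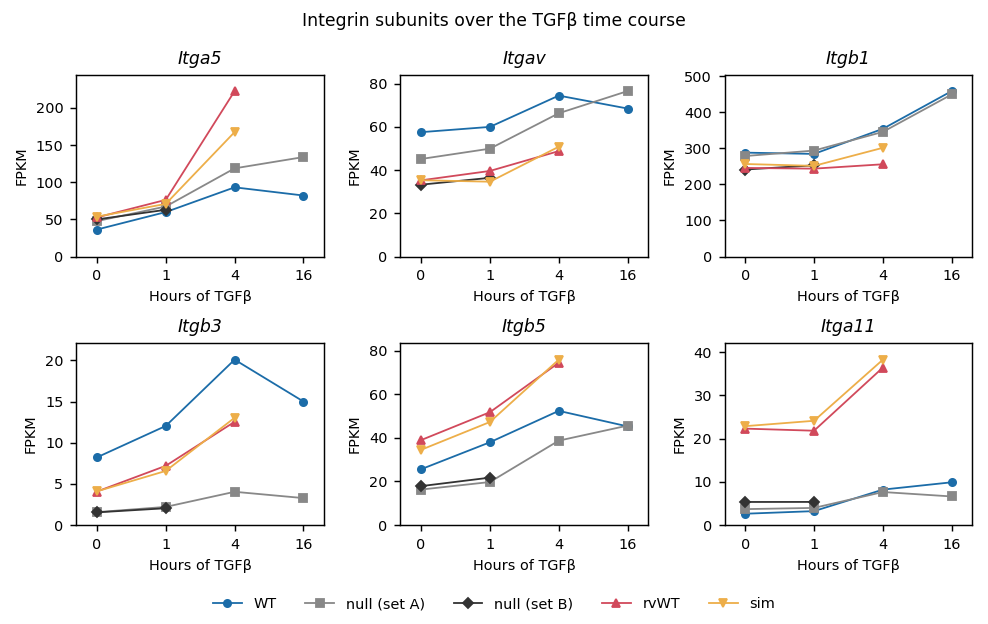
FPKM of 6 integrin subunits (panels, linear axes from 0) against hours of TGFβ, with 1 point per library and a line per series. Itga5 reaches 223 FPKM in rvWT cells at 4 h, and Itgb3 and Itga11 rise in every line from different starting levels.

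Laminin chains moved in opposite directions. Lamb1 went from 56.2, 47.5, 47.8 and 44.8 FPKM at 0 h (WT, null of set A, rvWT, sim) to 89.2, 60.9, 73.7 and 59.2 at 4 h, and every library at 4 h exceeded every 0 h library (difference 0.50 ± 0.09, adjusted p = 0.00292). Lamb2, its alternative β chain known from the neuromuscular junction and the kidney filter, went from 27.2, 59.8, 33.6 and 38.3 to 23.6, 51.2, 27.8 and 30.2 FPKM (difference -0.25 ± 0.05, adjusted p = 0.00533). The ratio of Lamb1 to Lamb2 FPKM thus moved from 2.07 to 3.78 in WT, from 0.793 to 1.19 in null, from 1.42 to 2.65 in rvWT and from 1.17 to 1.96 in sim cells. At 16 h this ratio was 5.33 in WT and 2.47 in null cells. Lamb3, a β chain of the laminin that anchors epithelia, rose by 0.29 ± 0.08 (adjusted p = 0.0131), a call lost with a pseudocount of 5 (0.114). Lamc1 rose by 0.31 ± 0.04, and Lama5 did not pass (0.11 ± 0.07, adjusted p = 0.258).

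The linkers of the basement membrane did not move together. Nid1, which bridges laminin and type IV collagen, went from 79.6, 156, 125 and 110 FPKM to 59.9, 115, 103 and 89.0 at 4 h (difference -0.35 ± 0.05, adjusted p = 0.000421). Nid2 went from 1.77, 37.4, 26.3 and 31.2 to 1.37, 28.2, 15 and 20.1 FPKM (-0.50 ± 0.15, adjusted p = 0.0241). The call of Nid2 was lost in 5 of 16 fits that left out 1 library. Both fell in each of the 4 lines, and WT cells had least of either gene at both times. Hspg2 rose by 0.27 ± 0.05, and Agrn fell by 0.11 ± 0.03, a call lost under both other scalings.

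**Figure D3:**
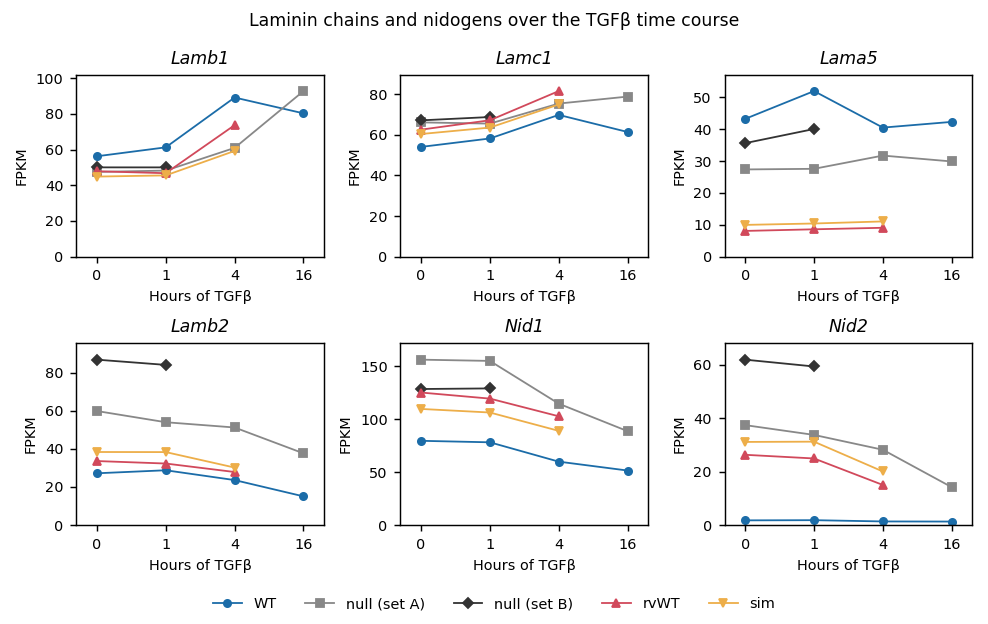
FPKM of 4 laminin chains and both nidogens (panels, linear axes from 0) against hours of TGFβ, 1 point per library. Lamb1 and Lamc1 climb to 4 h while Lamb2, Nid1 and Nid2 decline, and WT cells stay at or under 1.84 FPKM of Nid2.

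Among cadherins Cdh11 rose, from 7.31, 33.8, 86.3 and 91.5 FPKM at 0 h to 11, 55.1, 114 and 122 at 4 h (difference 0.51 ± 0.13, adjusted p = 0.0122). N-cadherin (Cdh2) fell, from 71.6, 30.2, 25.9 and 26.5 to 61.2, 27.5, 19.5 and 20.6 FPKM (-0.27 ± 0.06, adjusted p = 0.00616). Cdh24, a classical cadherin, rose by 0.27 ± 0.07, and Cdh13, which is anchored by a lipid and lacks a cytoplasmic tail, did not pass (-0.10, adjusted p = 0.512). Pcdh1 rose by 0.73 ± 0.14 and Pcdh18 by 0.30 ± 0.09, while Pcdh9 fell by 0.99 ± 0.16. Pcdh9 went from 1.2, 2.68, 4.43 and 4.47 FPKM to 0.412, 0.763, 1.30 and 1.63, and every library at 4 h except that of sim cells and that of rvWT cells lay below every 0 h library. Pcdh7 (0.05) and Pcdhgc3 (-0.11) did not pass. Of the 8 cluster protocadherins tested, 1 fell, Pcdhb14 (-0.21, adjusted p = 0.0412), and both other scalings removed this call. The proteins outside the families, Itgb1bp1 and Itgb3bp, fell by 0.19 and 0.40, and quantile normalization removed both calls. Of the calls at 4 h, that of Cdh24 was lost in 3 and that of Pcdh18 in 4 of the 16 fits that left out 1 library.

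The response began within 1 h for 4 of the 41 genes tested, all higher, among them Pcdh1 (0.73 ± 0.13), Itga5 (0.49 ± 0.12) and Itgb3 (0.47 ± 0.07). Of all genes, 3.95% rose and 2.01% fell at 1 h. Each of the 4 was higher at 1 h than at 0 h in 5 of 5 series, which their selection by this test favours. Itgb3 went from 8.22, 1.57, 1.55, 4.07 and 4.10 FPKM at 0 h (in the order WT, null A, null B, rvWT and sim) to 12, 2.21, 2.05, 7.20 and 6.58 at 1 h. Itgb5 was also higher in 5 of 5 series and did not pass (0.39 ± 0.10, adjusted p = 0.0509). The call of Itga5 (adjusted p = 0.0436) was lost in 11 of 16 fits that left out 1 library, and set A alone gave 0 calls and set B alone 2.

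At 16 h, when only WT and null cells were sampled, 15 of the 41 genes rose and 6 fell, where 6.84% of all genes rose and 12.5% fell. The median of the 41 was 0.08, and that of all genes was -0.07. Of all genes called, 35.3% were higher, against 52.5% with median-ratio scaling, and the 41 then split into 15 higher and 5 lower. Itga5 remained high at 82.1 FPKM in WT and 134 in null cells (difference 1.36 ± 0.18, adjusted p = 0.000674). Itgb1 reached 459 and 450 FPKM, above its 354 and 346 at 4 h, and rose by 0.65 ± 0.06 over 0 h (adjusted p = 6.76e-05). Cdh11 was 11.3 FPKM in WT and 97.9 in null cells (0.97 ± 0.17, adjusted p = 0.00314), and without the null 16 h library its difference was 0.53, which still passed. Lamb2 was 15.1 and 37.6 FPKM (-0.75 ± 0.07, adjusted p = 9.61e-05), and Nid1 was 51.5 and 88.7 (-0.69 ± 0.06, adjusted p = 5.25e-05). Itgb5 rose by 1.09, Itga11 by 1.04, Itgb3 by 0.83, Pcdh1 by 0.75 and Lamb1 by 0.71 (0.42 without the null 16 h library), and Nid2 fell by 0.86. Itgb7, a leukocyte β chain, carried the largest negative difference (-1.13 ± 0.34, adjusted p = 0.0403), which came from null cells, where it was 4.30 FPKM at 0 h and 0.191 at 16 h. The call of Itgb7 was lost in 13 of 16 fits that left out 1 library, with quantile normalization and in set A alone. Without the null 16 h library its difference was -0.23 and that of Nid2 was -0.37 (adjusted p = 0.203), neither passing, and the count of calls went from 21 to 12. Cdh13, lower by -0.53 over both lines (adjusted p = 0.037), was -0.29 without that library. The call of Cdh13 was lost in 6 of 16 fits that left out 1 library. It was also lost under both other scalings, with a pseudocount of 0.1 and in set A alone.

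The WT and null lines differed most in a collagen receptor chain, a nidogen, an epithelial laminin chain and a mesenchymal cadherin, all lower in WT cells. Of the 39 genes tested over the 8 libraries of set A, 8 were higher and 21 lower in WT than in null cells, where 37.4% of all genes were higher and 30.1% lower. The median difference of the 39 was -0.37, and that of all genes was 0.07. Among the genes called, Itga1, Lamb3, Itgb7 and Pcdhb16 had a mean under 1 FPKM in WT cells and passed the filter through null cells. Itga7 and Itga2b had a mean under 1 FPKM in null cells and passed it through WT cells. In these bulk libraries fewer cells of a type and less RNA per cell cannot be told apart. The keratins Krt8, Krt18, Krt19 and Krt7, the 4 of 10 epithelial markers in the table, summed to 272 to 523 FPKM in WT cells and to 25.2 to 40.8 in null cells of set A. Krt19 alone carried this gap (267 to 519 against 1.53 to 4.91 FPKM), and the other 3 keratins were lower in WT cells (Krt7 2.03 to 2.90 against 15.8 to 25.3). Mesothelial markers (4 of 4) summed to 208 to 310 FPKM in WT and 301 to 502 in null cells. Of these, Msln, Upk3b and Lrrn4 had lower levels in WT cells at each time, whereas Wt1 had higher ones (49.3 to 64.5 against 14.0 to 16.9 FPKM), and the part of either list in the results was not tested.

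Itga1 lay at 0.278, 0.261, 0.230 and 0.287 FPKM in WT cells (0, 1, 4 and 16 h) and at 11.6, 11.6, 12.1 and 11.9 in null cells (difference -3.34 ± 0.07, adjusted p = 1.39e-05). Neither line changed Itga1 over time by more than a small part of this gap. Itga6, the laminin receptor chain of epithelial and stem cells, was 6.64 to 7.96 FPKM in WT and 24.6 to 29.6 in null cells (-1.81 ± 0.06, adjusted p = 3.32e-05). Itgb3 went the other way, with 8.22, 12, 20.1 and 15 FPKM in WT and 1.57, 2.21, 4.04 and 3.28 in null cells (1.96 ± 0.06, adjusted p = 3.35e-05). Itga7 was 2.43 to 3.07 FPKM in WT and 0.577 to 0.938 in null cells (1.09 ± 0.08), and Itga2b differed by 1.05 ± 0.09. Itga5 was lower in WT cells by a small step (-0.40 ± 0.09, adjusted p = 0.0111). Itgb5 was higher (0.49 ± 0.15, adjusted p = 0.0328), a call lost with median-ratio scaling and in 6 of 8 fits that left out 1 library. Itgb7 was lower (-1.41 ± 0.36, adjusted p = 0.0179), a call also lost in 6 of those 8 fits. With time as the block, leaving out either library of a time gives nearly the same result. Those 8 fits therefore come in like pairs and are not separate checks. Itgav, Itgb1 and Itga3 did not pass, with differences of 0.15, 0.02 and -0.32.

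The laminin and other basement membrane genes of the rule were mostly lower in WT cells. Nid2 was 1.77, 1.84, 1.37 and 1.32 FPKM in WT and 37.4, 33.8, 28.2 and 14.2 in null cells (-3.43 ± 0.19, adjusted p = 0.000117). Lamb3 was 0.117 to 0.521 FPKM in WT and 6.54 to 11.9 in null cells (-2.84 ± 0.09, adjusted p = 3.18e-05). For neither gene did the lines overlap. Lamb2 differed by -1.09, Nid1 by -0.91, Agrn by -0.53, Lamc1 by -0.23 and Hspg2 by -0.20, and in all 8 of 10 laminin and other basement membrane genes of the rule were lower. Over all genes tested 30.1% were lower. Of 11 basement membrane genes outside the rule, 4 were lower and 2 higher, near the share of lower calls over all genes. The call of Hspg2 was lost in 6 of 8 fits that left out 1 library and that of Lamc1 in 2. These fits come in like pairs, 1 for each library of a time. Lama5 was higher in WT cells, at 43.2, 52.0, 40.5 and 42.3 FPKM in WT and 27.4, 27.5, 31.7 and 29.9 in null cells (0.59 ± 0.10, adjusted p = 0.00328).

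Cdh2 and Cdh11 traded places between the lines of set A. Cdh2 was 61.2 to 71.6 FPKM in WT and 24.1 to 30.3 in null cells (1.24 ± 0.07, adjusted p = 0.000114). Cdh11 was 7.31, 7.99, 11 and 11.3 FPKM in WT and 33.8, 35.9, 55.1 and 97.9 in null cells (-2.33 ± 0.18, adjusted p = 0.000254). At every time WT cells thus held more Cdh2 than Cdh11 mRNA per length, and null cells of set A held more Cdh11 than Cdh2. Null cells of set B did not show this: Cdh11 was 28.4 and 28.5 FPKM there and Cdh2 28.7 and 28.9 (0 and 1 h). Cdh24 was higher in WT cells (0.63 ± 0.07). Cdh26 was listed at 0 in all 4 WT libraries and at 0.293 to 1.60 FPKM in the other 12 libraries, and its mean was too low for the test in set A. Among protocadherins, Pcdh7 was 9.75 to 17.1 FPKM in WT and 28.3 to 41.8 in null cells (-1.40 ± 0.15, adjusted p = 0.000819). Pcdhb16 (-1.82 ± 0.09), Pcdhgb2 (-1.51 ± 0.07), Pcdhgc3 (-0.74 ± 0.09) and Pcdh18 (-0.87 ± 0.08) were also lower in WT cells, and Pcdh19 was higher (0.57 ± 0.09). Of the 6 cluster protocadherins tested, 5 were lower and 0 higher in WT cells, where 30.1% of all genes were lower and 37.4% higher. Pcdhb16 had a mean of 0.263 FPKM in WT and 3.47 in null cells, so it passed the filter through null cells and could hardly be higher in WT cells.

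Wild-type Arkadia brought by retrovirus went with less Lama5, Itga3, Itga1, Lamb3 and Lamb2 and more Itga11, Cdh11, Itgb3 and Itgb5 than in null cells of the same set. Of 42 genes tested in set B, 9 were higher and 16 lower in rvWT than in null cells, where 16% of all genes were higher and 22.6% lower. For sim cells the counts were 11 higher and 16 lower, against 13.9% and 20.8% of all genes. The medians were -0.06 for rvWT and -0.10 for sim cells, and those of all genes were -0.03 and -0.02. Both comparisons rest on the same 2 null libraries, so they are not independent. Leaving out the set B null library at 0 h or that at 1 h gave fewer calls for rvWT and for sim cells alike, and each such fit held 1 null library. Cdh13, Cdh24, Itga2b, Pcdhb22, Pcdhga1 and Pcdhgc3 were lost in both comparisons without either null library of set B. Of all genes called, 41.5% were higher in rvWT and 40.1% in sim cells, against 54.3% and 52.3% with quantile normalization, under which the 42 genes split into 12 higher and 15 lower in each. The keratins summed to 38.5 to 42.4 FPKM in null cells of set B, 10.7 to 18.2 in rvWT and 12.2 to 22.0 in sim cells. Mesothelial markers summed to 701 to 707, 99.7 to 116 and 133 to 156 FPKM, and their part in the results was not tested.

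Lama5 was 35.6 and 40.1 FPKM in null cells of set B (0 and 1 h), 8.04, 8.55 and 9.03 in rvWT cells (0, 1 and 4 h) and 9.93, 10.4 and 11 in sim cells. The difference from null cells was -2.06 ± 0.05 for rvWT (adjusted p = 4.25e-05) and -1.80 ± 0.05 for sim cells (8.56e-05). Itga3 was 128 and 133 FPKM in null cells, 30.1 to 39.4 in rvWT and 31.1 to 44.3 in sim cells (-1.73 ± 0.05 and -1.63 ± 0.05). For both genes every library of either infected line lay below both null libraries. Itga1 was 19.4 and 20.2 FPKM in null, 4.41, 4.65 and 3.26 in rvWT and 7.01, 6.27 and 5.93 in sim cells (-1.95 ± 0.09 and -1.41 ± 0.09). Lamb2 was 86.8 and 84.0 FPKM in null, 27.8 to 33.6 in rvWT and 30.2 to 38.3 in sim cells (-1.33 and -1.15). Lamb3 differed by -1.68 and -1.60, Nid2 by -1.23 and -0.92, Agrn by -0.97 and -0.93, Itga6 by -0.74 and -0.86, and Cdh13 by -0.88 and -0.83. Cdh13 had a mean of 0.847 FPKM in rvWT, 0.937 in sim and 2.45 in null cells of set B. It thus passed the filter through null cells and could hardly be higher in the infected lines. Null cells also differed between the sets. At 0 h their Nid2 was 37.4 FPKM in set A and 62.0 in set B, and their Agrn was 30.8 and 45.3. Itga1 was 11.6 and 19.4, Lamb2 59.8 and 86.8, and Itga3 96.2 and 128 FPKM. Itga6 went the other way (29.6 and 27.2). Nid2 at 0 h was 26.3 FPKM in rvWT and 31.2 in sim cells. The gap between the null series was not tested.

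Itga11 was 5.35 and 5.36 FPKM in null cells, 22.3, 21.8 and 36.5 in rvWT and 22.9, 24.1 and 38.3 in sim cells (1.86 ± 0.05 and 1.94 ± 0.05, adjusted p = 4.31e-05 and 7.3e-05). Cdh11 was 28.4 and 28.5 FPKM in null, 85.7 to 114 in rvWT and 83.2 to 122 in sim cells (1.55 ± 0.06 and 1.60 ± 0.06). Itgb3 was 1.55 and 2.05 FPKM in null, 4.07 to 12.5 in rvWT and 4.10 to 13.0 in sim cells (1.19 ± 0.11 and 1.18 ± 0.11). Itgb5 differed by 1.12 and 1.03, Pcdh18 by 0.93 and 0.99, and Pcdh9 by 0.92 and 0.99. Itgav, Itgb1, Lamb1, Lamc1 and Itga5, all with a mean of at least 20 FPKM, did not pass in either comparison, and their differences ran from -0.18 to 0.24. Hspg2 was lower in both (-0.39 and -0.52), as were Pcdh7 (-0.53 and -0.28) and Pcdhgc3 (-0.29 and -0.23). The sim call of Pcdh7 was lost in 5 of 8 fits that left out 1 library and with quantile normalization, and both calls of Pcdhgc3 in 3 of 8 such fits. Nid1 differed by -0.07 in rvWT cells and did not pass, and by -0.26 in sim cells, where it passed (adjusted p = 0.0103). Cdh2 was lower in rvWT cells (-0.21, adjusted p = 0.0269) and did not pass in sim cells (-0.15, adjusted p = 0.0781). The rvWT call of Cdh2 was lost under both other scalings and in 5 of 8 fits that left out 1 library. Itgb1bp1 and Itgb3bp did not pass in either comparison.

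**Figure D4:**
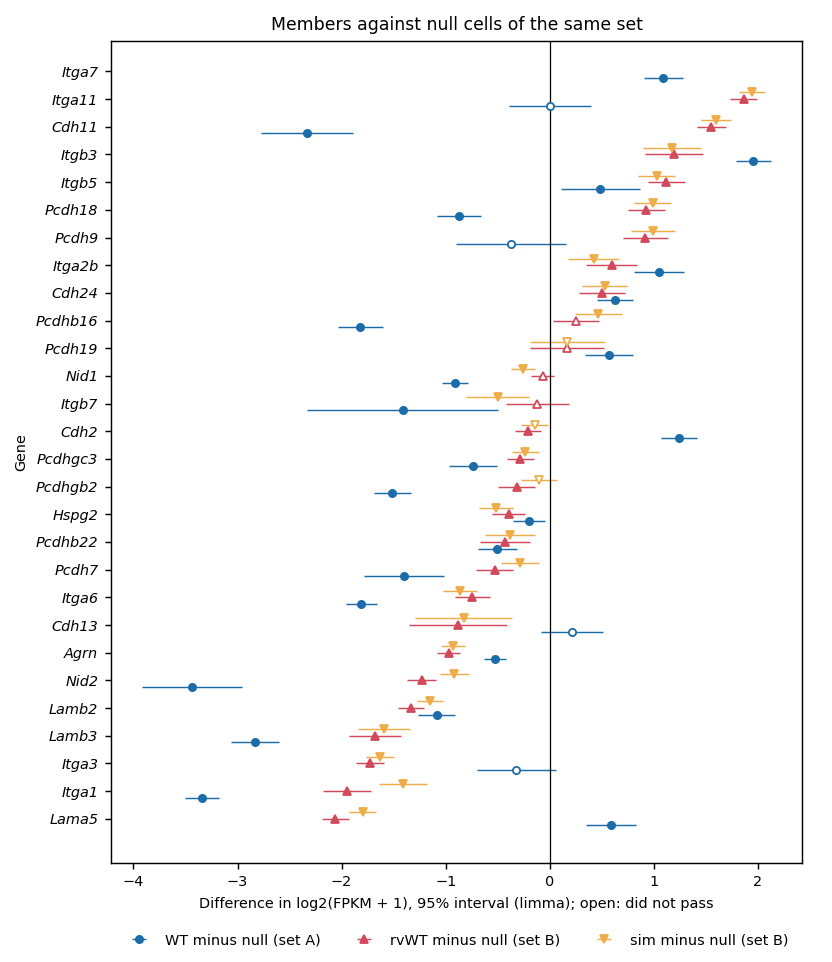
Difference in log2(FPKM + 1) from null cells of the same set for 28 genes, with 95% intervals from limma; open symbols did not pass. Lamb2, Lamb3, Itga1, Itga6 and Nid2 lie left of 0 for all 3 lines, Itgb3 and Itgb5 lie right of 0, and Cdh11, Pcdh18 and Lama5 have WT cells on the other side from rvWT and sim cells.

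Set side by side, the WT and rvWT comparisons shared no library. Both called 21 of the 38 genes tested in both, 16 of them in the same direction (12 lower and 4 higher with Arkadia) and 5 in opposite directions. The share in the same direction was 76.2%, and among the 3020 genes of the whole table called in both it was 62.2%. For WT and sim cells 22 were called in both, 17 in the same direction, a share of 77.3% against 60.7% of 2697 genes. The genes lower in WT, rvWT and sim cells included Itga1, Itga6, Lamb2, Lamb3, Nid2, Agrn, Hspg2 and Pcdh7, and those higher included Itgb3, Itgb5, Itga2b and Cdh24. The genes that went in opposite directions in WT and rvWT cells were Cdh11, Cdh2, Lama5, Pcdh18 and Pcdhga1.

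The comparison of sim with rvWT cells asked what the SUMO-interacting motifs add. limma called 0 of 42 between sim and rvWT cells (10 at an unadjusted p below 0.05), and 0.493% of all genes were called. The differences nearest to the threshold were those of Itga1, 0.54 higher in sim cells (95% interval 0.35 to 0.74, adjusted p = 0.0727), and Nid2, 0.31 higher (0.20 to 0.43, adjusted p = 0.0785). Itga1 was higher in every sim library than in every rvWT library. Lama5 was 0.26 higher (0.15 to 0.38, adjusted p = 0.099), and Pcdh1 was 0.52 lower (-0.86 to -0.17, adjusted p = 0.188). For Itga11 the interval ran from -0.03 to 0.19, for Cdh11 from -0.07 to 0.16 and for Itgb3 from -0.26 to 0.22. Arkadia mRNA itself was lower in sim than in rvWT cells, as given above, and the part of this gap in the differences was not tested.

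Whether the late response (4 and 16 h) differed by Arkadia status was tested as an interaction. For rvWT and sim cells this crosses the sets, since late null libraries were in set A only, and set and line cannot be told apart there. Between WT and null cells limma called 0 of 41 genes (9 at an unadjusted p below 0.05), where 0.561% of all genes were called. For rvWT and null cells it called 0 of 41 (8 at an unadjusted p below 0.05), against 0.426% of all genes, and for sim and null cells 0 of 41 (2), against 0.0634%. The largest WT minus null differences were 1.32 for Itgb7 (95% interval 0.42 to 2.22), 0.76 for Pcdh9 (0.29 to 1.24), 0.61 for Itga11 (0.26 to 0.95, adjusted p = 0.116), -0.57 for Cdh11 (-1.09 to -0.05) and -0.56 for Itgb5 (-0.92 to -0.19, adjusted p = 0.15). Itga11 FPKM went up 3.77-fold in WT cells from 0 to 16 h and 1.79-fold in null cells, as ratios of FPKM. Itga5, which reached 223 FPKM in rvWT cells at 4 h, had an rvWT minus null difference of 0.66 (0.24 to 1.07, adjusted p = 0.0945) and a sim minus null difference of 0.29 (-0.13 to 0.70). Without the WT or the null library at 4 h, the WT minus null difference rests on 16 h alone, with 1 library of each line. Both fits therefore give the same contrast, which is no longer one of 4 and 16 h. In it the difference was 2.01 for Itgb7, 1.09 for Pcdh9, 0.99 for Nid2, 0.82 for Itga11, -0.95 for Cdh11 and -0.78 for Itgb5. Without the WT 4 h, WT 16 h or null 16 h library the rvWT minus null difference of Itga5 was 0.74. In each of these fits its late side rests on 1 rvWT and 1 null library at 4 h, so they are 1 result.

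Genes that work with these families were counted from lists, and the shares over all genes are those given above (11.9% higher and 27.1% lower at 4 h). Several counts lie near these shares. Of 19 integrin adaptors tested, 7 rose and 0 fell at 4 h of TGFβ, among them Tns1 (tensin, 0.91), Pxn (paxillin, 0.57), Bcar1 (p130Cas, 0.55) and Vcl (vinculin, 0.21). Of 14 integrin ligands outside the basement membrane, 6 rose and 2 fell at 4 h. Those that rose included Ctgf (3.07), Thbs1 (thrombospondin, 1.41), Cyr61 (1.30) and Tnc (tenascin, 0.68). Of 11 other basement membrane genes, 6 rose, among them Smoc2 (0.94), Col18a1 (0.59) and Col4a1 (0.43), and 1 fell, Col4a6 (-0.36). Of 11 cadherin partners, Jup (plakoglobin) rose by 0.72, and Ctnnal1 (-0.73) and Pvrl2 (-0.30) fell. Of 9 other laminin receptors 0 rose and 3 fell, a share near that of all genes: Sdc2 (-0.35), Sgcb (-0.31) and Sgce (-0.23).

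Between lines the counts stand beside 37.4% higher and 30.1% lower of all genes in WT, 16% and 22.6% in rvWT, and 13.9% and 20.8% in sim cells. In rvWT against null cells 0 of 11 cadherin partners were higher and 8 were lower, those with the smallest p being Arvcf (-1.32), Jup (-0.76), Mllt4 (afadin, -0.67) and Ctnnal1 (-0.73), and in sim cells the counts were again 0 and 8. In WT against null cells 3 of 12 were higher and 4 lower. Of 9 other laminin receptors, 0 were higher and 4 lower in rvWT cells, with Bcam, a laminin α5 receptor, at -2.97 and Dag1 (dystroglycan) at -0.76. Sim cells had 2 higher and 4 lower, with Bcam at -2.65 and Dag1 at -0.50, and WT cells had 2 higher and 6 lower. Bcam was higher in WT than in null cells of set A (1.05), as Lama5 was. It lay at 17.3 to 21.8 FPKM in WT and 5.21 to 11.1 in these null cells. Null cells of set B had 31.1 and 29.9 FPKM of Bcam, more than any WT library. Of 19 adaptors, 4 were higher and 9 lower in WT, 1 and 8 in rvWT, and 2 and 6 in sim cells. Of 14 ligands, 3 were higher and 7 lower in WT, 6 and 4 in rvWT, and 6 and 5 in sim cells. Of 11 other basement membrane genes, 2 were higher and 4 lower in WT, 1 and 4 in rvWT, and 1 and 5 in sim cells.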

How the data were processed

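RNA was measured by stranded poly(A) sequencing in 16 libraries of 4 MEF lines. The authors deposited FPKM in 1 merged table, with 1 RefSeq transcript per gene. The submitters' processing notes name Cufflinks 2.2.1, STAR 2.3.0e, CASAVA 1.8.2 and SAMtools with the build mm9, without roles. Neither read counts nor counting precision can be had from these values. Groups came from the sample labels. Genes with a mean of at least 1 FPKM over a fit's libraries were tested on log2(FPKM + 1) with limma 3.58.1 (R 4.3.3, trend), with time as a block between lines and series as a block for TGFβ, and Benjamini-Hochberg adjustment over all genes (threshold 0.05). Lines were compared within a set, except in the late response of rvWT and sim cells. The members and gene lists were chosen with earlier results of these data known. Named genes were Rnf111, the members that passed with the largest differences (up to 12 per comparison), those with a mean of at least 20 FPKM, those listed at 0, and up to 4 genes of each other list. Alternatives were pseudocounts of 0.1 and 5, no filter or a mean of at least 5 FPKM, median-ratio or quantile scaling, no trend, no time block, 1 set alone, and leaving out each library in turn. Code was tested on simulated data. Promoters came from RefSeq on GRCm38.p6, a build that differs from mm9. Counts cover all members, of which 1 is not reported here by name.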

Additional observations from a re-analysis of the deposited data

Results flagged for a closer look

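For 5 genes the difference from null cells had opposite signs in WT cells of set A and rvWT cells of set B, each past the threshold. Cdh11 differed by -2.33 in WT and by 1.55 in rvWT cells, Lama5 by 0.59 and -2.06, and Pcdh18 by -0.87 and 0.93. Cdh2 differed by 1.24 and -0.21, and Pcdhga1 by -0.42 and 0.33. The difference between the 2 comparisons was itself not tested. The rvWT call of Cdh2 was lost under both other scalings, and that of Pcdhga1, a cluster gene with shared exons, in all 8 fits that left out 1 library.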

How the results depend on the processing

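No called difference changed sign under any alternative run. Requiring a mean of at least 5 FPKM, which tests fewer genes, left 19 calls for WT and 16 for sim against null. With no filter there were 40 calls for WT against null, 8 higher and 32 lower. Without the time block 16 calls remained for rvWT and 12 for sim against null. Each set alone held 8 of the 16 libraries. Set A alone gave 0 calls at 1 h of TGFβ, 1 at 4 h and 6 at 16 h. Set B alone gave 2 calls at 1 h and 23 at 4 h, where it held rvWT and sim cells only. Leaving out 1 library gave 24 to 31 calls for WT, 16 to 25 for rvWT and 15 to 26 for sim against null, 0 to 0 for sim against rvWT, and 3 to 5, 20 to 27 and 12 to 25 calls at 1, 4 and 16 h. For the late response it gave 0 to 11 calls for WT, 0 to 2 for rvWT and 0 to 3 for sim minus null; for rvWT and sim, 15 fits each, since the fit without the line's only 4 h library could not be made. The 3 calls for sim came without the null 4 h library, and the 2 for rvWT without the WT 4 h, WT 16 h, null 4 h or null 16 h library. A line or time left with 1 library is assumed to vary like the others. Without the WT or the null 4 h library, the late WT minus null difference rests on 16 h alone. The labels carry no replicate numbers, so libraries were matched only by time or series, used as the block. In set A the time block pairs 1 WT with 1 null library at each time. Leaving out either library of such a pair gives nearly the same comparison of WT with null cells. With 1 library per line and time, and read depth unknown, low genes have the least certain values.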
